A study of Mus musculus with 5 samples.

Results

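The cells described here were selected from droplet single-cell RNA-seq of mouse lung by a rule for classical monocytes, and 300 of the 12707 filtered cells of the 4 unsorted libraries met it. A filtered cell had more than 700 and fewer than 8000 detected genes and under 5% of its counts from mitochondrial features. The rule required unique molecular identifiers (UMIs) of at least 2 of the 4 markers Ccr2, F13a1, Ly6c2 and Ms4a6c, with Ms4a6c or F13a1 among them. It also required fewer than 2 of the nonclassical monocyte genes Adgre4, Cd300e, Fcgr4, Clec4a1 and Cd300ld, under 1000 CPM (counts scaled to a total of 1000000 per cell or per library) for C1qa, C1qb and C1qc together, and no UMI of Flt3, Cd79a or Cd3e. Because measured genes chose the cells, the values of these genes are descriptions and not findings.

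C57BL/6J mice were placed in room air or in more than 95% O2 within 12 h of birth and kept there for 3 days. In the hyperoxia experiments the dams were exchanged between air and O2 every 24 h, and all pups then stayed in room air until lung cells were taken at postnatal day 7 (pnd7) or pnd60. The 4 unsorted libraries were air pnd7, hyperoxia pnd7, air pnd60 and hyperoxia pnd60, without a transgene or a drug named for them. A further library, of pnd7 hyperoxia cells sorted on the β-galactosidase substrate C12FDG and pooled from 3 lungs, held 5 such cells among 493 and is not described further. Each condition had 1 library, the sources used here do not give the number of mice behind an unsorted one, and exposure, age and library therefore cannot be told apart. No test across mice was made, and no p-value is given.

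Classical monocytes are made in the bone marrow, leave it with the help of the chemokine receptor Ccr2 and carry high levels of the surface protein Ly6C in the mouse. They patrol blood and tissue for a short time, enter inflamed organs, and can become macrophages or dendritic-like cells there. In blood, part of them turn into nonclassical monocytes, which carry little Ly6C and survey the vessel wall. Of the markers, F13a1 encodes the A subunit of coagulation factor XIII, and Ms4a6c belongs to the Ms4a family of membrane proteins.

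There were 33 selected cells in air pnd7, 21 in hyperoxia pnd7, 114 in air pnd60 and 132 in hyperoxia pnd60. They held 317818, 281761, 435319 and 508525 counts in that order, and their median depth was 7156, 9894, 3424.5 and 3526 UMIs. The filtered cells of the same libraries held 16648251, 13576172, 14744081 and 16533775 counts. In the pnd7 libraries, single cells weighed heavily, since the deepest selected cell gave 14.8% of the counts in air and 19.4% in hyperoxia. At pnd60 it gave 3.60% and 2.08%. Between 0 and 7 barcodes were shared by any 2 libraries, and no barcode was that of a selected cell in 2 libraries. The doublet caller Scrublet marked 1, 4, 148 and 175 filtered cells in the same order, which were kept, and 0, 0, 6 and 7 of them were selected cells. At pnd7 it marked under 0.5% of the cells, so it gave no usable check on doublets there.

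The name classical monocyte did not hold for all cells that the rule selected. Of the 300 cells, 132 (44.0%) also carried markers of another cell type, defined as 3 or more genes of a lymphocyte, dendritic cell or mast cell and basophil list, 6 or more genes of an alveolar macrophage list, or at least 10000 CPM of the type II cell gene Sftpc. Lymphocyte genes were found in 65 of them, dendritic cell genes in 27, high Sftpc in 22, alveolar macrophage genes in 14 and mast cell or basophil genes in 7, with some cells in more than 1 class. By library, 17 of 33, 13 of 21, 56 of 114 and 46 of 132 cells carried such markers. High Sftpc was the most frequent class in air pnd7, with 11 cells, and lymphocyte genes were the most frequent at pnd60, with 31 cells in each library. These limits were set after the values had been seen.

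The doubtful cells were mostly those with few markers. Of the 142 cells with 2 of the 4 markers, 117 (82.4%) carried genes of another cell type, against 15 of the 158 cells with 3 or 4 markers (9.49%). All 4 markers were detected in 111 cells, Ccr2 with Ms4a6c alone in 84, and Ly6c2 with Ms4a6c alone in 48. Just outside the rule lay 362 cells with Ms4a6c or F13a1 as their single marker, 141 cells with 2 nonclassical genes in place of at most 1, and 46 cells with Ccr2 and Ly6c2 but neither of the required genes. Just inside lay the 142 cells with 2 markers and 146 cells with 1 nonclassical gene. Flt3, Cd79a and Cd3e kept out 92, 32 and 142 cells.

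A list of 24 further classical monocyte genes that the rule did not use, such as Plac8, Fn1, Lyz2 and Cd14, separated the same cells. Cells with 3 or 4 markers had a median of 17 of these 24 genes detected, at a median of 3948 UMIs, and cells with 2 markers had a median of 5, at 3120.5 UMIs. The 168 cells without markers of another type had a median of 16, with a range from 0 to 22. By library there were 16, 8, 58 and 86 of these cells. They are called the restricted cells here, all 300 are called the selected cells, and the main results are given for both. Fibroblast and endothelial genes were not used to leave cells out. In air pnd7, 1 restricted cell held all 50 counts of the endothelial gene Vwf, and 1 held 94% of the 260 elastin (Eln) counts. The 11 mesenchymal genes summed to 2463, 106, 696 and 1720 CPM in the restricted cells. Lymphocyte genes were used to leave cells out, so their low level in the restricted cells is a description. Among them, 18, 18, 15 and 10 of 19 lymphocyte genes were at 0 counts and the list summed to 37.8, 45.3, 37.1 and 107 CPM in the 4 libraries in order. In the selected cells the sums were 173, 1303, 1649 and 1475 CPM, with the cytotoxic granule protease gene Gzma highest in 3 of the 4 libraries. The part of these cells in any result was measured by leaving them out and was not tested otherwise.

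**Figure D1:**
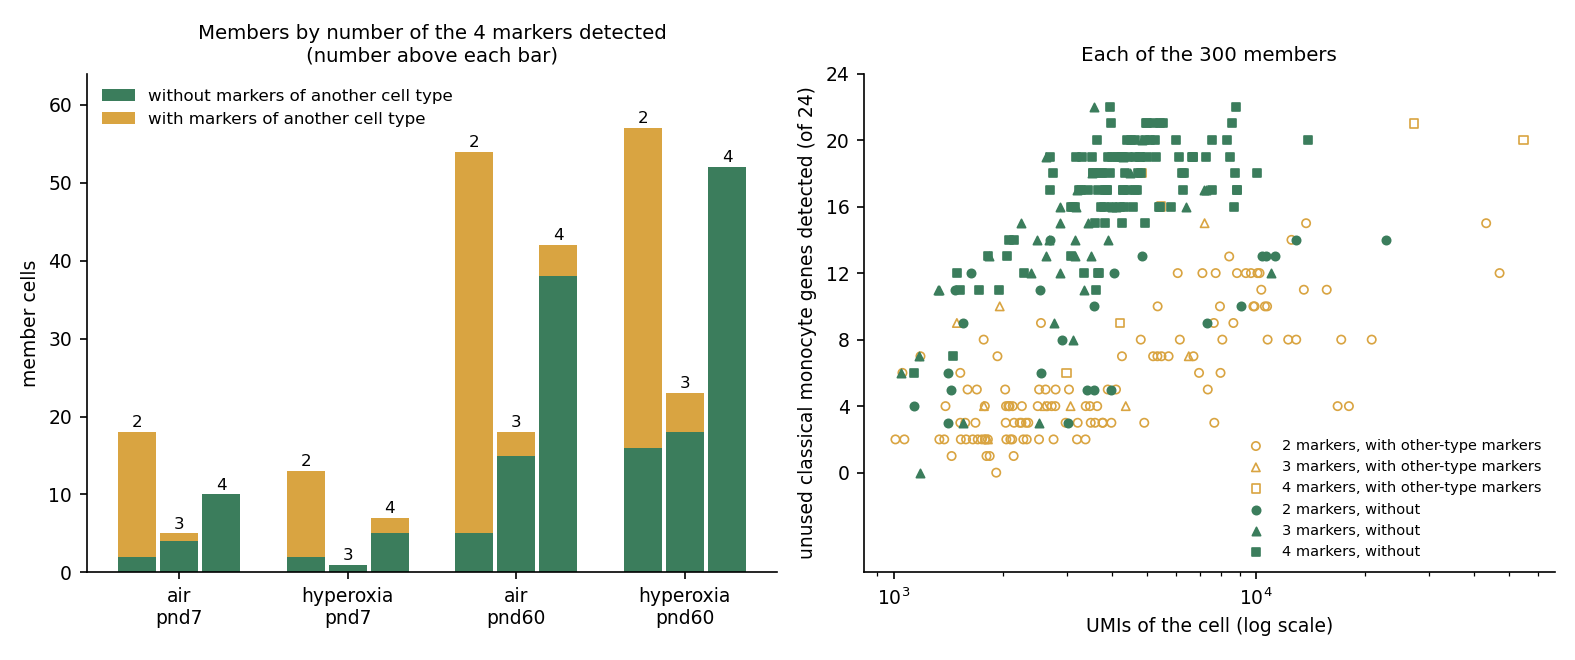
Left, selected cells per library (cells) by the number of the 4 markers detected, split by markers of another cell type. Right, each of the 300 selected cells by its UMIs (log scale) and the number of 24 unused classical monocyte genes detected in it. Most 2-marker cells carried markers of another type (117 of 142), and they lie low in the right panel, with a median of 5 genes against 17 for cells with 3 or 4 markers.

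Free RNA in droplets gives some UMIs in cells that do not express a gene. As a reference for it, unselected cells with 3 or more endothelial genes, Ly6c1 not counted, and no UMI of the leukocyte gene Ptprc were taken. There were 319, 286, 815 and 848 in the 4 libraries in order, with medians of 3301, 4131, 1814 and 1900.5 UMIs. Leaving out cells with Ptprc may lower the free leukocyte RNA seen in this reference. Since detection of the 4 markers chose the cells, their shares are a description. Ccr2 was detected in 72.7%, 90.5%, 80.7% and 81.1% of the selected cells and in 0.940%, 0.350%, 0.368% and 0.354% of the reference cells. For Ly6c2 the shares were 54.5%, 47.6%, 65.8% and 72.0% of the selected cells, against 2.82%, 2.45%, 0.736% and 0.825% of the reference cells. F13a1 was found in 60.6%, 33.3%, 47.4% and 46.2% of the selected cells and in at most 0.940% of the reference cells of a library, so it was the marker most often missing in 3 of the 4 libraries. Ms4a6c was found in 87.9%, 100%, 95.6% and 97.0% of the selected cells, against 1.57%, 1.05%, 0.859% and 0.354% of the reference cells.

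The question behind the libraries was how neonatal hyperoxia alters lung cells at pnd7 and after recovery in air to pnd60. As shares of the filtered cells, the selected cells made up 1.43% in air pnd7 (95% Clopper-Pearson interval 0.986 to 2.00), 1.69% in hyperoxia pnd7 (1.05 to 2.56), 2.59% in air pnd60 (2.14 to 3.11) and 2.78% in hyperoxia pnd60 (2.33 to 3.28). All intervals here are at 95% and cover counting error only. The restricted cells made up 0.693% (0.397 to 1.12), 0.642% (0.278 to 1.26), 1.32% (1.003 to 1.70) and 1.81% (1.45 to 2.23). The air and hyperoxia intervals overlapped at both ages, for the selected and for the restricted cells. The pnd60 and pnd7 intervals were apart for the selected cells in air and for the restricted cells after hyperoxia, and overlapped in the other pairs. As a share of cells with a UMI of Ptprc, which encodes the leukocyte antigen CD45, the selected cells stood at 3.49%, 5.59%, 4.46% and 4.67%, with no common direction between the ages. Detection of the markers depends on depth, and the filtered cells had medians of 3915, 7119.5, 2168 and 2315.5 UMIs. With each cell thinned to 2000 UMIs and shallower cells left out, 1698, 1088, 2421 and 2852 cells remained, and the shares were 1.77%, 1.47%, 4.87% and 4.31%. The rule was applied anew to the thinned counts, its exclusions included, and it selected 30, 16, 118 and 123 cells. In air pnd60 that was more than the 114 cells of full depth, so thinning changed the cells as well as their depth.

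**Figure D2:**
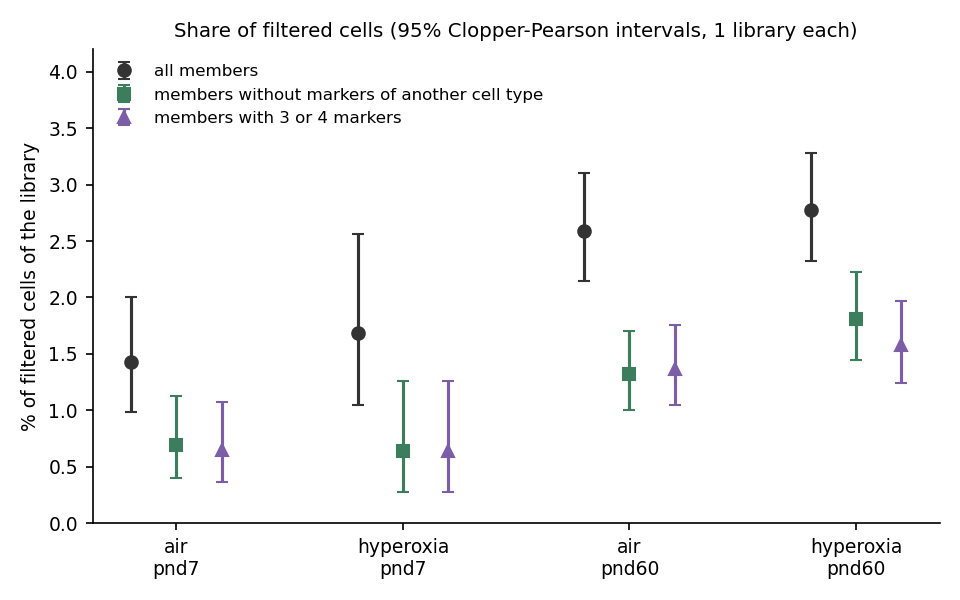
Share of the filtered cells of each library (%) taken by all selected cells, by the restricted cells and by cells with 3 or 4 markers, with 95% Clopper-Pearson intervals that cover counting error only. Air and hyperoxia intervals overlap at each age, and the pnd60 points lie above the pnd7 points in all 3 sets.

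In the selected and in the restricted cells, the larger differences were between the ages. With 3 or 4 markers this order did not hold for age in air. There, 59 genes were higher and 71 lower of 708 for exposure at pnd7, against 149 and 63 of 1194 for age in air. Among genes with at least 50 counts in the 2 libraries compared, 413 of 2965 were 2-fold or more higher (13.9%) and 191 were 2-fold or more lower (6.44%) at pnd60 than at pnd7 in air, together 20.4% of the genes. After hyperoxia 584 of 3123 genes were higher (18.7%) and 245 lower (7.85%), together 26.5%. For the restricted cells the figures in air were 131 higher (10.4%) and 69 lower (5.5%) of 1255 genes, together 15.9%. After hyperoxia they were 271 higher (18.1%) and 109 lower (7.29%) of 1495 genes, together 25.4%. The median log2 ratio of CPM over all genes was itself 0.16 in air and 0.25 after hyperoxia. Higher genes made up 68.4% of those past 2-fold in air and 70.4% after hyperoxia. With ratios centred on that median these shares were 52.5% and 50.6%, and without hemoglobin, surfactant, secretoglobin, ribosomal protein and mitochondrial features that of air was 57.7%. Ratios and medians near these shifts carry no direction.

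The comparison in air and the comparison after hyperoxia share no library, and they can be set side by side. Of the genes that could be compared in both, 240 were 2-fold or more higher in both, which is 62.3% of the higher genes in air and 46.4% of those after hyperoxia. Lower in both were 77 genes, 55.8% and 40.7% of the lower genes. The log2 ratios had a correlation of 0.70 across 2720 genes, and of 0.69 across 1184 genes in the restricted cells, where 65 genes were higher and 31 lower in both. Genes of 1 library are not independent replicates, so this is a description of these 4 libraries.

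**Figure D3:**
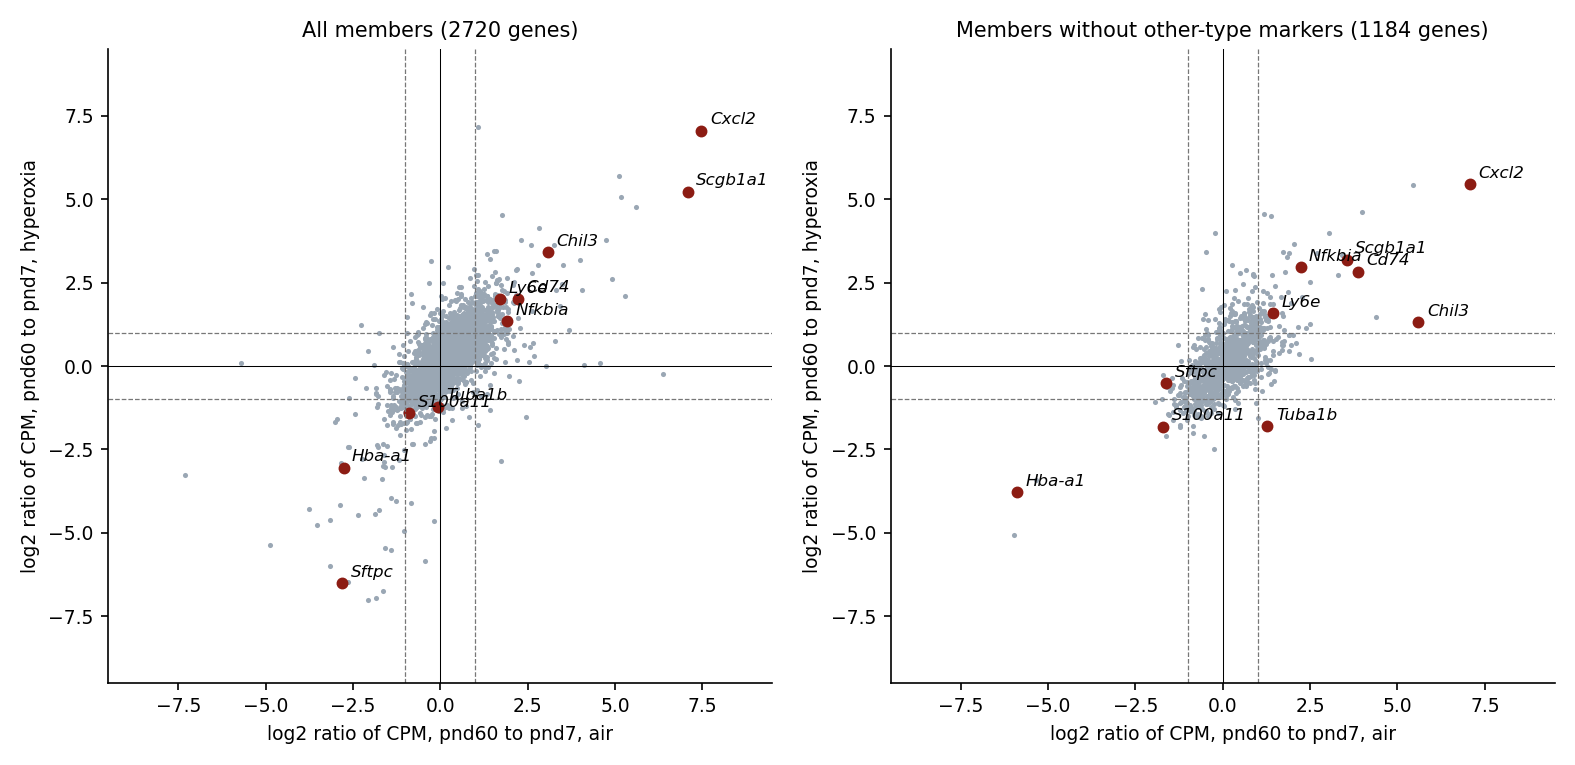
Log2 ratio of CPM between pnd60 and pnd7 in air (horizontal) and after hyperoxia (vertical), 1 point per gene, for all selected cells (2720 genes) and for the restricted cells (1184 genes). Members in the panel titles are the selected cells, a library with 0 counts of a gene is set to 3 counts, and dashed lines mark 2-fold. Cxcl2 lies at the upper right and the hemoglobin gene Hba-a1 at the lower left in both panels, while Sftpc lies far from 0 on the vertical axis in the selected cells and not in the restricted cells.

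The chemokine gene Cxcl2 and the NF-κB inhibitor gene Nfkbia were among the genes that were higher at pnd60 in air and after hyperoxia. NF-κB is the transcription factor family that drives many inflammatory genes in monocytes and is held back by the inhibitor IκBα, the product of Nfkbia. Cxcl2, a chemokine that attracts neutrophils, had 3.15 CPM in air pnd7, 3.55 CPM in hyperoxia pnd7, 558 CPM in air pnd60 and 474 CPM in hyperoxia pnd60. There was 1 count of it in each pnd7 library and 243 and 241 counts in the pnd60 libraries. The log2 ratio of pnd60 to pnd7 was 7.47 in air (4.98 to 12.78) and 7.06 after hyperoxia (4.57 to 12.37). Restricted cells held 7.55, 15.1, 1020 and 668 CPM in the same order. It was detected in 31.0% and 29.1% of the restricted cells at pnd60, against 0.491% and 0.708% of the endothelial reference cells, so its pnd60 counts came from a part of the cells. The cell with most Cxcl2 held 14% and 16% of its pnd60 counts in the selected cells. In the nonclassical monocytes of the same libraries, cells with 2 or more of the 5 nonclassical genes, the log2 ratio was 3.64 in air and 1.76 after hyperoxia. In all other filtered cells it was 2.05 and 1.31.

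Nfkbia had levels of 302, 461, 1142 and 1174 CPM in the 4 libraries in order, and 332, 196, 1554 and 1529 CPM in the restricted cells. Both pnd60 libraries lay above both pnd7 libraries in either set. Its log2 ratio between the ages was 1.92 in air (1.60 to 2.25) and 1.35 after hyperoxia (1.07 to 1.63), and it was 2.22 and 2.96 in the restricted cells. Nfkbiz, which encodes the NF-κB cofactor IκBζ and was singled out after its values had been seen, had levels of 132, 92.3, 600 and 698 CPM and log2 ratios of 2.18 and 2.92, and of 3.04 and 3.99 in the restricted cells. Tnfaip3, which encodes the NF-κB inhibitor A20, was chosen in the same way as Nfkbiz for its age ratio. Its levels were 47.2, 270, 384 and 271 CPM, with a log2 ratio of 3.02 in air and 0.01 after hyperoxia in the selected cells and of 4.398 and 1.47 in the restricted cells. For Nfkbia, Nfkbiz and Tnfaip3 the nonclassical monocytes and all other filtered cells were higher at pnd60 in air and after hyperoxia, with log2 ratios from 0.71 to 2.69.

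The promoters of Cxcl2 and Nfkbia, the leading chemokine gene and the inhibitor gene of this group, are shown because both hold the same NF-κB type motif. The windows run from 250 bases before to 50 bases after the annotated start and were taken from RefSeq on GRCm38.p6, at chr5:90903649-90903948 on the plus strand for Cxcl2 and at chr12:55492598-55492897 on the minus strand for Nfkbia. Capitals mark the match to GGAATTTCC on either strand, which begins 96 bases before the start of Cxcl2 and 29 bases before that of Nfkbia.
Cxcl2: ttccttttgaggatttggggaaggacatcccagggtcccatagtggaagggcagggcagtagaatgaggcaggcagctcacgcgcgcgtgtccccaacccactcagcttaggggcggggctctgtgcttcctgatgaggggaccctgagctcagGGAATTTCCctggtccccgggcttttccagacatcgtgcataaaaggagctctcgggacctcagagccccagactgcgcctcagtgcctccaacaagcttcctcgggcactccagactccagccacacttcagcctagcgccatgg
Nfkbia: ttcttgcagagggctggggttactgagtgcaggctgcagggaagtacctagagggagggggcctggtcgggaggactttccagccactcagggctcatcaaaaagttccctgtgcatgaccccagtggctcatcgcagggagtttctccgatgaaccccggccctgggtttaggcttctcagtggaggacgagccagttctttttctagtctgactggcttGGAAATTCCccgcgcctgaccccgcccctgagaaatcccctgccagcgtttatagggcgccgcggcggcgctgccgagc
The motif was found in 103 of 27025 genes with a window (0.381%). Of the 14 immediate-early and stress genes with a window, 2 held it, Nfkbia and Ier3, and Ier3 was lower at pnd60 after hyperoxia. A match describes letters in the window and is neither a shown binding site nor a cause of the levels.

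The list of 18 immediate-early and stress genes holds Nfkbia together with early transcription factors, RNA-binding proteins and heat shock proteins. In air 6 of 15 genes past the count limit were 2-fold or more higher and none lower at pnd60, against 13.9% higher over all genes, with a median log2 ratio of 0.73. After hyperoxia 6 were higher and 1 lower, against 18.7% higher over all genes, with a median of 0.82. The median was larger with 3 or more markers, at 1.33 and 1.56, and after thinning, at 1.47 and 1.39. Among the restricted cells 6 of 12 and 9 of 13 were higher, against 10.4% and 18.1% of all genes. Zfp36, which encodes the mRNA-decay protein tristetraprolin, had levels of 598, 618, 1698 and 1713 CPM and log2 ratios of 1.51 and 1.47, and of 1.04 and 1.14 in the restricted cells. Dusp1, a phosphatase that turns off MAP kinases, had log2 ratios of 1.84 and 1.09, and Btg2, an antiproliferative gene, of 1.62 and 2.14, with 1.96 and 1.89 in the restricted cells. Dusp1 ratios in the restricted cells were 1.69 and 0.73, the second below 2-fold. All other filtered cells had ratios of 1.58 and 1.76 for Zfp36, 1.85 and 1.23 for Dusp1, and 0.93 and 1.002 for Btg2.

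Of 25 chemokine and cytokine genes, 6 of 10 were higher and 1 lower in air, against 13.9% higher and 6.44% lower over all genes. After hyperoxia 5 of 12 were higher and 3 lower, against 18.7% and 7.85%. Among the restricted cells 4 of 6 and 5 of 8 were higher, against 10.4% and 18.1% of all genes, and none was lower. Tnf, Cxcl3 and Cxcl16 of this list were at 0 counts over all filtered cells of each library, and nothing is read from those zeros. Il1b, the interleukin-1β gene, had 40.9, 7.10, 140 and 163 CPM, and 75.5, 30.2, 260 and 212 CPM in the restricted cells. Its pnd7 levels rest on 13 and 2 counts. Ccl4, a chemokine for T cells and monocytes, had 173, 894, 466 and 362 CPM, so it was higher at pnd60 in air and lower after hyperoxia in the selected cells, while the restricted cells held 0 counts in hyperoxia pnd7 and 86 counts in hyperoxia pnd60.

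**Figure D4:**
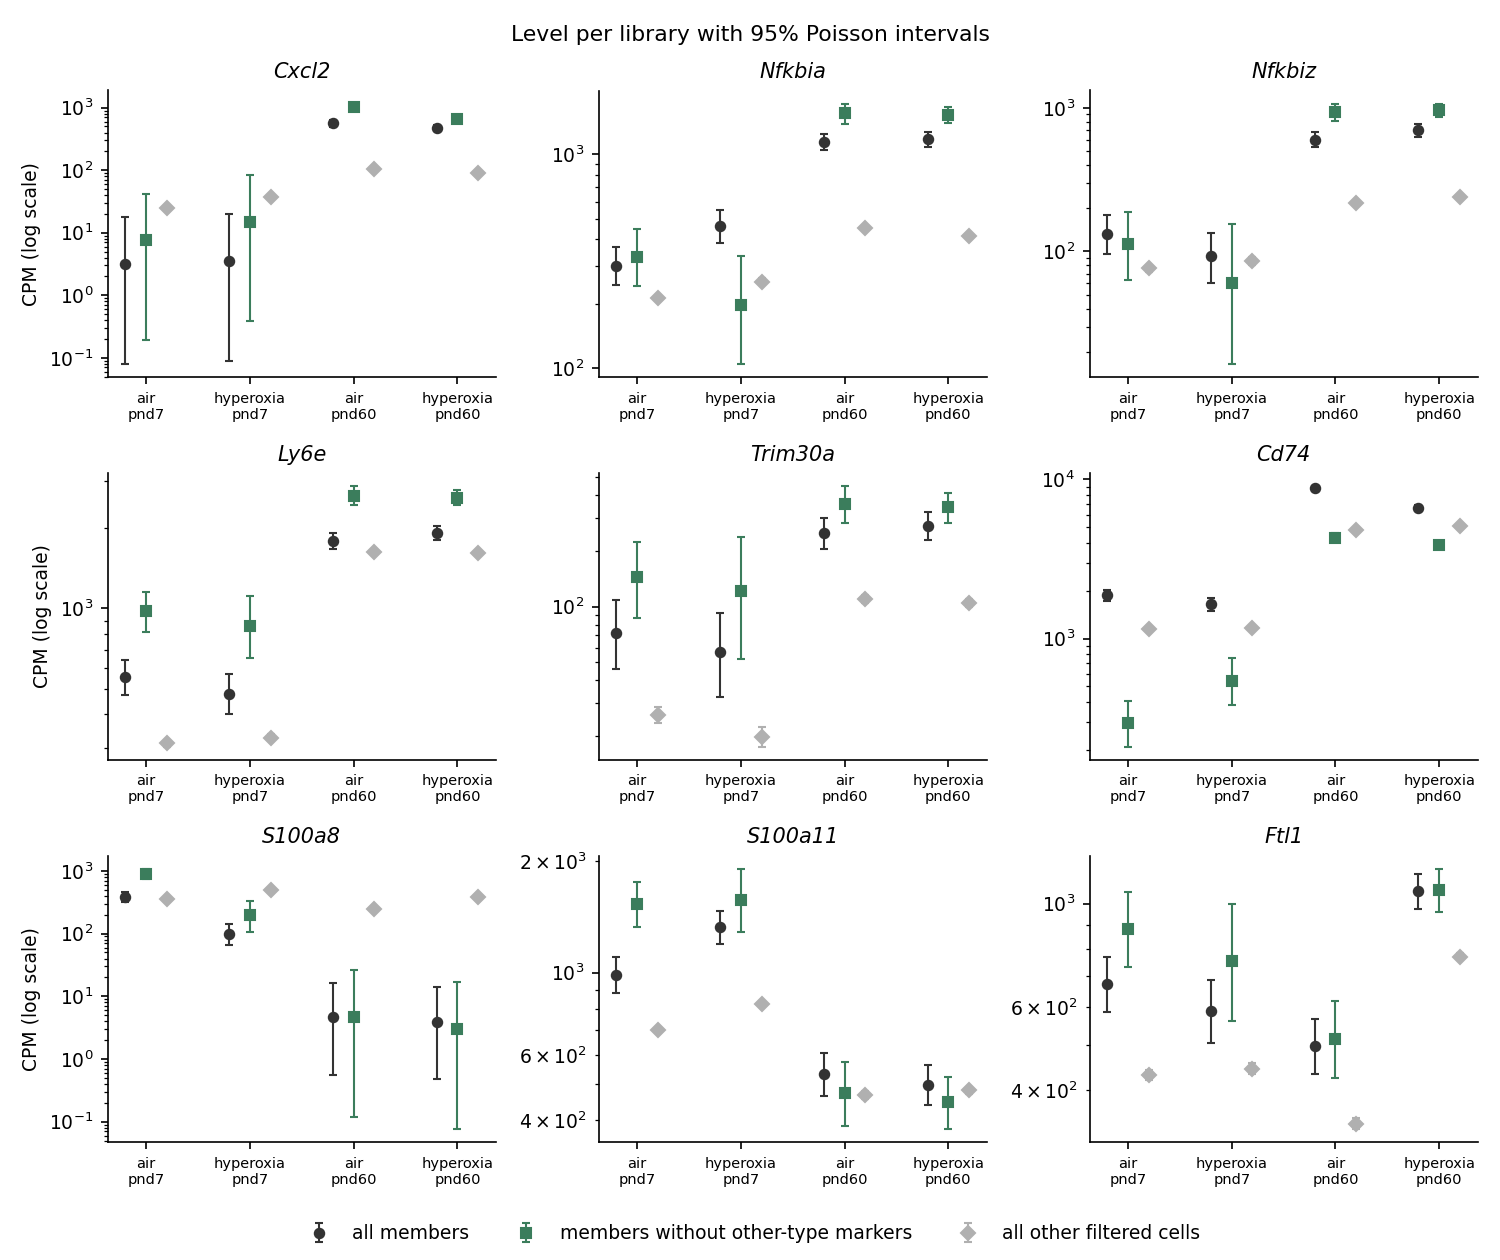
Level per library (CPM, log scale) of 9 genes in all selected cells, in the restricted cells and in all other filtered cells, with 95% Poisson intervals that cover counting error only. Cxcl2, Nfkbia, Nfkbiz, Ly6e, Trim30a and Cd74 lie higher at pnd60 in all 3 sets, S100a11 lies lower, S100a8 lies lower in both sets of selected cells, and Ftl1 is higher in hyperoxia pnd60 than in air pnd60 in all 3 sets.

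Interferon-stimulated genes restrict viruses and are induced through the receptors of type I interferons, and some of them were higher at pnd60. Of 32 listed genes, 11 passed the count limit in air and 12 after hyperoxia, and 8 of them were 2-fold or more higher in each comparison, with none 2-fold or more lower, against 13.9% higher over all genes in air and 18.7% after hyperoxia. The other listed genes did not reach the count limit, which a gene can also pass through its higher library alone. The medians of the log2 ratio were 1.16 and 2.04. With cells thinned to 2000 UMIs they were 0.56 and 1.31, and among cells with 3 or more markers the median in air was 0.50. Within the restricted cells 3 of 8 were higher in air and 9 of 10 after hyperoxia, against 10.4% and 18.1% of all genes, with medians of 0.94 and 1.61. The summed level of the list was 1963, 2083, 4443 and 5524 CPM in the 4 libraries in order. Ly6e, a membrane protein gene of the Ly6 family, had 551, 479, 1792 and 1919 CPM, and its log2 ratio was 1.70 in air (1.46 to 1.95) and 2.00 after hyperoxia (1.74 to 2.27). It was 1.44 and 1.60 in the restricted cells, in nonclassical monocytes 1.05 and 0.9997, and in all other filtered cells 2.38 and 2.31. Trim30a, a regulator of innate signalling, had 72.4, 56.8, 248 and 273 CPM, with log2 ratios of 1.78 and 2.27, and of 1.32 and 1.503 in the restricted cells. Irf7, the transcription factor that amplifies interferon production, had 53.5, 49.7, 119 and 220 CPM, with log2 ratios of 1.16 and 2.15, and of 0.75 and 1.63 in the restricted cells. Cxcl10, a chemokine for T cells, had 0 and 1 counts at pnd7 and 38 and 64 counts at pnd60. Ifi27l2a, the listed gene with most counts, stood apart from this, at 576, 880, 641 and 1266 CPM and log2 ratios of 0.15 and 0.52.

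The promoter of Trim30a is shown as the gene of the list that was 2-fold or more higher in both comparisons, in the selected and in the restricted cells, and that holds the interferon-response type motif GAAANNGAA. The window lies at chr7:104465144-104465443 on the minus strand of GRCm38.p6 (RefSeq), and capitals mark the match on either strand, which begins 35 bases before the start.
Trim30a: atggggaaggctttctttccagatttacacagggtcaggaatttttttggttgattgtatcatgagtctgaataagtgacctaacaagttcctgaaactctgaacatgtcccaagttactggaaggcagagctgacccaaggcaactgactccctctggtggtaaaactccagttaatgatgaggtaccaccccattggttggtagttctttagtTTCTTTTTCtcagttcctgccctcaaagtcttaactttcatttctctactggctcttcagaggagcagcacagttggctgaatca
Of the 24 listed genes with a window, 15 held this motif (62.5%), against 9.76% of 27025 genes with a window, and it was present in 3 of the 5 genes higher in air and in 3 of the 6 higher after hyperoxia that had a window.

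Cd74, the invariant chain that loads MHC class II molecules, had 1866, 1640, 8766 and 6645 CPM in the selected cells. The restricted cells held 295, 544, 4300 and 3874 CPM, with log2 ratios between the ages of 3.87 in air (3.41 to 4.37) and 2.83 after hyperoxia (2.36 to 3.35). In the endothelial reference cells its level was 321, 214, 515 and 643 CPM, so the restricted cells of air pnd7 lay at the level of that background. At pnd7, 74% and 94% of the Cd74 counts of the restricted cells came from 1 cell, and at pnd60 24% and 21%. Nonclassical monocytes had log2 ratios of 3.64 and 3.56. The class II genes H2-Aa and H2-Ab1 had 3 to 41 and 2 to 40 counts over all filtered cells of a library, where Cd74 had 15850 to 84892, and the MHC class II list therefore rests on Cd74.

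Some receptors and adhesion molecules of monocyte trafficking were also higher at pnd60. In air 6 of 14 genes of this list were 2-fold or more higher and 1 lower, and after hyperoxia 9 of 13 were higher and 1 lower, against 13.9% and 18.7% higher over all genes. For the restricted cells 3 of 10 and 2 of 10 were higher, against 10.4% and 18.1% of all genes, so the second share was near the background, and none was lower. Cx3cr1, the fractalkine receptor, had 129, 56.8, 379 and 399 CPM and log2 ratios of 1.55 and 2.81, with 1.27 and 2.18 in the restricted cells. Ccr2, a rule gene given as a description, had 510, 536, 1335 and 1261 CPM, and 982, 1224, 1920 and 1687 CPM in the restricted cells. Cx3cr1 was also higher in all other filtered cells, by log2 ratios of 1.25 and 0.86.

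Among the 24 unused classical genes, 8 of 21 were 2-fold or more higher in each age comparison, against 13.9% of all genes in air and 18.7% after hyperoxia, with medians of 0.53 and 0.83. With cells thinned to 2000 UMIs and selected anew the medians were -0.09 and -0.17, so their direction was not stable. That setting changed the cells as well as the depth, and the 2 cannot be told apart. In the restricted cells 5 of 21 were higher in each, against 10.4% and 18.1%, so the share after hyperoxia was near the background. Thbs1, a matrix glycoprotein gene, was the 1 lower gene in air, and in the restricted cells after hyperoxia Thbs1 and S100a10 were lower. Cd14, the co-receptor for bacterial lipopolysaccharide, had 78.7, 60.3, 283 and 240 CPM and log2 ratios of 1.84 and 1.99, close to the 1.85 and 2.21 of the restricted cells. Plac8 had 884, 603, 1826 and 2602 CPM and log2 ratios of 1.05 and 2.11, and of 0.75 and 1.71 in the restricted cells. Chil3, a chitinase-like secreted protein, had 56.6, 103, 480 and 1095 CPM, and in the restricted cells 7.55, 242, 366 and 602 CPM. Chil3 is also a gene of alveolar macrophages, whose list summed to 340, 740, 413 and 682 CPM in the restricted cells with Siglecf and Marco at 0 counts in all 4 libraries. By contrast, Ear2 had 159 and 740 CPM in the restricted cells of air and hyperoxia pnd7, with 82% of the hyperoxia counts in 1 cell. Of pattern-recognition receptors, 2 of 8 genes were higher in air and 6 of 15 after hyperoxia, where Clec4n was lower, and in the restricted cells 1 of 4 and 7 of 11 were higher. The shares of all genes that were higher were 13.9% and 18.7% in the selected and 10.4% and 18.1% in the restricted cells.

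Fewer genes were lower at pnd60, and S100a8 was among them, at rank 10 in air. The air ranking was led by Eln, Acta2, Lyz1 and Tpm2, with 74% to 97% of their pnd7 counts in 1 cell each. The ranking after hyperoxia was led by Prss34, Sftpc and Mcpt8, with 100%, 52% and 89% of their pnd7 counts in 1 cell. S100a8, a calcium-binding protein of monocytes and neutrophils, had 387 CPM in air pnd7, 99.4 CPM in hyperoxia pnd7, 4.59 CPM in air pnd60 and 3.93 CPM in hyperoxia pnd60. The restricted cells had 899, 196, 4.64 and 2.98 CPM, with 119, 13, 1 and 1 counts. The log2 ratio between the ages was -6.40 in air (-9.46 to -4.51) and -7.60 in the restricted cells (-12.91 to -5.09). Its partner gene S100a9 had 0 counts in both pnd7 libraries and 3 and 4 counts at pnd60. Of the neutrophil markers in the restricted cells, 11, 12, 10 and 4 of the 17 neutrophil genes were at 0, Retnlg, Mmp9, Mpo and Ly6g in all 4 libraries, and the list summed to 1171, 438, 274 and 286 CPM. The part of neutrophil RNA in the S100a8 values was not tested. S100a11, another member of the family, had 988, 1327, 533 and 499 CPM, and 1534, 1572, 473 and 447 CPM in the restricted cells. Its log2 ratio was -0.89 in air (-1.14 to -0.64), short of 2-fold, and -1.41 after hyperoxia (-1.65 to -1.18), and -1.70 and -1.81 in the restricted cells. In nonclassical monocytes it was -0.98 in both comparisons.

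Transcripts of red blood cells were lower at pnd60 in both sets, while the values of cell cycle genes depended on the cells taken. The 7 erythroid genes summed to 9786, 1810, 1027 and 140 CPM in the selected cells and to 7811, 3884, 125 and 179 CPM in the restricted cells, with Hbb-bs highest in all libraries and the red cell membrane gene Slc4a1 at 0 in all of them. Of the cell cycle list, 4 of 7 genes were lower in air and 10 of 12 after hyperoxia, with median log2 ratios of -1.05 and -2.84. Over all genes 6.44% and 7.85% were lower. The median in air was -0.05 among cells with 3 or more markers, -0.0066 without the deepest 5% of cells and 0.0143 with mean CPM of single cells, and after hyperoxia it was -0.63 with cells thinned to 2000 UMIs. Restricted cells had 3 of 4 lower after hyperoxia, while in air 0 of 3 were lower and the tubulin gene Tuba1b was higher, with a median of 0.10. The shares of all genes lower in those cells were 5.5% in air and 7.29% after hyperoxia. Glycolysis genes had medians of -0.01 and -0.41, and in the restricted cells 4 of 7 were lower after hyperoxia, Aldoa, Gapdh, Pgk1 and Ldha, against 7.29% of all genes. For antioxidant genes the medians were -0.32 and -0.26, with Txn1, which encodes thioredoxin, lower in both comparisons and in both sets.

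Some of the 10 highest genes at pnd60 are known from other cells. Scgb1a1, the club cell secretoglobin, had 6.29, 10.6, 855 and 399 CPM and was found in 56.9% and 81.4% of the restricted cells at pnd60. The endothelial reference cells carried it in 57.9% and 65.3% of cells, at 12031 and 8851 CPM. The part of free RNA in these values was not tested. Retnla came from 1 cell for 55% and 100% of its pnd60 counts. Inmt and Mgp, genes of lung fibroblasts, had 148 and 170 counts in air pnd60 and were found in 29.8% and 35.1% of the selected cells there. The reference cells carried them in 36.8% and 35.7% of cells. In air pnd60 1 cell held 51% of the Inmt counts and in hyperoxia pnd60 1 cell held 63% of the 262 Mgp counts, and the part of free RNA was not tested. Gzma and Klre1 of cytotoxic lymphocytes and Cd209a of dendritic cells were also in this group, and Gzma had 0 counts in the restricted cells of every library.

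At pnd7, hyperoxia and air differed in 179 of 2167 genes by 2-fold or more (8.26%), 90 higher (4.15%) and 89 lower (4.11%) after hyperoxia. The restricted cells, 8 and 16 in number, had 32 of 615 genes past 2-fold (5.2%), 15 higher (2.44%) and 17 lower (2.76%). Shares were larger among cells with 3 or 4 markers, with 59 higher and 71 lower of 708 genes. With all 4 markers 56 were higher and 68 lower of 584. In both sets 1 hyperoxia cell with markers of another type held 54645 counts, of 124499 and of 119659 in all. The 13 epithelial genes summed to 54635 CPM in the hyperoxia cells with 3 or 4 markers, against 5510 CPM in air. Several of the leading genes of the selected cells came mostly from single cells. All 235 counts of Gzma and all 185 counts of the basophil protease gene Prss34 in the hyperoxia library lay in 1 cell each. Elastin (Eln) had 1186 counts in air, 74% of them in 1 cell, and 97% of the 475 counts of the smooth muscle actin gene Acta2 were from 1 cell. Other leading genes were spread over more cells in their higher library, such as Tnfaip3 with 32% of its hyperoxia counts in 1 cell and Hba-a2 with 17% of its air counts. In the lower library 1 cell held 40% of the Tnfaip3 and 50% of the Hba-a2 counts. Cells with 3 or 4 markers held only 5 of the 76 hyperoxia and 1 of the 15 air counts of Tnfaip3. Leading genes of the restricted cells also came from single cells. After hyperoxia 1 cell held all 51 counts of Mmp12, 82% of those of Ear2 and 72% of those of Tuba1b. In air it was all 50 counts of Vwf, 94% for Eln and 90% for Jun. Of 14 cell cycle genes, 10 were higher after hyperoxia, against 4.15% of all genes, with a median log2 ratio of 1.66. The median was 0.34 after thinning to 2000 UMIs, and -0.01 over 3 genes without the cells that had a UMI of Mki67 or Top2a, which leaves cells out for genes of the list itself. It was 2.40 with 3 or more markers, 2.60 with all 4, 2.27 with mean CPM of single cells and 2.16 without the deepest 5% of cells. The medians with 3 or more and with all 4 markers rest on 5 genes. Among the hyperoxia cells with 3 or 4 markers, 1 cell held all 53 Top2a counts and 1 held 99% of the 102 Stmn1 counts. The restricted cells had a median of 0.89, and the list summed to 1836 CPM in air and 5954 CPM after hyperoxia there. In the restricted cells 1 of 3 was higher, against 2.44%.

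S100a8 was lower after hyperoxia at pnd7 in both sets of cells, while the direction of the hemoglobin genes Hba-a1 and Hba-a2 depended on the cells taken. For S100a8 the log2 ratio of hyperoxia to air was -1.96 (-2.61 to -1.36), and -2.19 (-3.15 to -1.37) in the restricted cells, where 1 cell held 37% of the 119 counts in air. In all other filtered cells it was 0.44. Nonclassical monocytes also had less S100a8 after hyperoxia, with 1686 CPM in air and 600 CPM after hyperoxia. The 17 neutrophil genes summed to 1171 and 438 CPM in the restricted cells, and their part was not tested. Hba-a1 had a log2 ratio of -2.70 in the selected and -1.24 in the restricted cells, where 1 cell held 76% of the 46 counts after hyperoxia and 1 held 47% of the 218 counts in air. The ratio of Hba-a2 was -2.85 and -1.36. Among the cells with all 4 markers both were higher after hyperoxia, Hba-a1 with 177 CPM in air and 401 CPM after hyperoxia and Hba-a2 with 177 and 334 CPM, a log2 ratio of 0.92 for Hba-a2. Of the 119659 counts of those hyperoxia cells, 54645 came from 1 cell with markers of another type. The classical genes outside the rule showed a median of 0.02, with none of 17 higher and Thbs1 lower, against 4.15% and 4.11% of all genes. In the restricted cells 0 of 15 were past 2-fold, against 5.2% of all genes, so these counts were near the background. The median was -0.55 among cells with 3 or more markers and -0.77 among those with all 4. The hyperoxia cell with 54645 counts was in both of these sets. Of the senescence and secretory genes that the study followed, 4 of 8 passed the count limit. None of them was past 2-fold in either set, against 8.26% of all genes in the selected and 5.2% in the restricted cells, so this is near the background. Cdkn1a encodes the cell cycle inhibitor p21. It was too sparse for the limit, at 28.3 CPM in air (9 counts) and 53.2 CPM after hyperoxia (15 counts). Interferon-stimulated genes past the limit numbered 3, and none was past 2-fold, against 8.26% of all genes, so this too is near the background.

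At pnd60, after recovery in room air, fewer genes were past 2-fold between hyperoxia and air, 75 of 3724 (2.01%), with 23 higher (0.618%) and 52 lower (1.4%) after hyperoxia. Restricted cells had 38 of 2171 (1.75%), with 25 higher (1.15%) and 13 lower (0.599%). Higher genes made up 30.7% of the genes past 2-fold, 47.9% without Scrublet doublets, 47.5% with mean CPM of single cells and 65.8% in the restricted cells, so the direction of the whole was not stable. Lrg1 ranked first among the lower genes, with 91 counts in air, 96% of them from 1 cell, and 1 count after hyperoxia. Sftpc, the surfactant protein C gene of type II cells, ranked next. Sftpc had 5736 CPM in air and 344 CPM after hyperoxia in the selected cells, but 148 and 158 CPM in the restricted cells. The 13 epithelial genes summed to 8104 and 1121 CPM in the selected cells and to 686 and 873 CPM in the restricted cells, from which cells with high Sftpc had been left out by definition. Among cells with 3 or 4 markers, not chosen on Sftpc, it had 300 counts in air and 47 after hyperoxia, a log2 ratio of -3.02, and the epithelial genes summed to 2537 and 874 CPM. Among those with all 4 markers the log2 ratio of Sftpc was 0.22.

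Ftl1, the ferritin light chain that stores iron, was higher after hyperoxia at pnd60 in both sets. It had 496 CPM in air and 1064 CPM in hyperoxia, a log2 ratio of 1.10 (0.87 to 1.33), and 515 and 1070 CPM in the restricted cells, a log2 ratio of 1.06 (0.74 to 1.38). It fell just short of 2-fold without cells with Mki67 or Top2a, at 0.95, and with all 4 markers, at 0.98. The ratio was 1.16 in nonclassical monocytes, 1.25 in C1q-high macrophages and 1.19 in all other filtered cells, so it was shared by the whole library. Ferritin genes have near-identical copies in the genome, and the level of Ftl1 is uncertain for that reason. Chil3 had 480 and 1095 CPM, a log2 ratio of 1.19 (0.96 to 1.43), and below 2-fold at 0.72 in the restricted cells and at 0.41 after thinning. Tmem164, a membrane protein gene, had 64.3 and 142 CPM and a log2 ratio of 1.14, with 1.18 in the restricted cells and 0.86 after thinning. It was -0.11 in nonclassical monocytes and -0.04 in all other filtered cells, and the difference from those cells was not tested.

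Of the 13 genes lower after hyperoxia at pnd60 in the restricted cells (0.599%), Per1, Tsc22d3, Thbs1 and Cxcr4 are described here, chosen after the cells had been ranked. Per1, a clock gene, had 186 CPM in air and 65.6 CPM in hyperoxia, a log2 ratio of -1.501 (-2.32 to -0.72). Tsc22d3, which encodes the glucocorticoid-induced leucine zipper, had 348 and 158 CPM and a log2 ratio of -1.14 (-1.67 to -0.61). Thbs1 had 366 and 167 CPM, a log2 ratio of -1.13. Cxcr4, a receptor that retains cells in the marrow, had 148 and 68.5 CPM and a ratio of -1.11 (-1.95 to -0.30). In the selected cells the log2 ratios of these 4 genes were -0.97, -0.98, -0.81 and -1.16, so that of them Cxcr4 alone was past 2-fold. For all other filtered cells they were -0.56, -0.64, -0.68 and -0.57. Cdkn1a was below the count limit in the restricted cells, with 31 counts in air and 17 in hyperoxia, and in the selected cells its log2 ratio was -1.15. The higher genes of the restricted cells were led by Mgp, Mfap4, Col1a2, Sparc and Bgn. For each of them 1 cell held 50% to 68% of the hyperoxia counts, and the mesenchymal list summed to 696 and 1720 CPM. Next came Retnla, with all 660 hyperoxia counts in 1 cell. Ctsd, a lysosomal protease gene, was also higher, with 227 and 504 CPM and a log2 ratio of 1.15 (0.68 to 1.64), and 34% of its hyperoxia counts came from 1 cell. In the selected cells the ratio was 0.62. The classical genes outside the rule had a median of 0.07 in the restricted cells. There 0 of 14 interferon-stimulated genes were past 2-fold, near the 1.75% of all genes.

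The exposure ratios at pnd7 and at pnd60, which share no library, had a correlation of 0.02 across 1987 genes in the selected cells. No gene was 2-fold or more higher at both ages and 6 were lower at both (9.84% and 18.8% of the lower genes). Another 3 genes were higher at pnd7 and lower at pnd60 and 2 the reverse, and in the restricted cells none of these patterns was found among 603 genes.

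Within each library the selected cells were set beside the 94, 76, 217 and 285 nonclassical monocytes. Of 3192 genes with at least 50 counts over both classes in each library, 6 were 2-fold or more higher in the selected cells in all 4 libraries (0.188%) and 41 were lower in all 4 (1.28%). Both classes were chosen by expressed genes, so these figures are descriptions. With cells carrying markers of other types left out of both classes, 6 of 1807 genes were higher in all 4 libraries (0.332%) and 39 lower (2.16%). The 6 were the rule genes F13a1, Ly6c2 and Ccr2 and, outside the rule, Fn1, Ly6a2 and Naaa. Fn1, which encodes fibronectin, had 1587, 2252, 2514 and 2259 CPM in the restricted cells and 506, 502, 424 and 555 CPM in the nonclassical cells, with a median log2 ratio of 2.10. Ly6a2, of the Ly6 family like Ly6c2, had 242, 393, 357 and 295 CPM against 94.4, 135, 69.4 and 94.2 CPM. Naaa, a lysosomal amidase gene, had a median log2 ratio of 1.16. In the selected cells Fn1 did not reach 2-fold in all libraries, and the chemokine genes Ccl4 and Ccl3, the early gene Ier3 and Cd74 were the higher genes outside the rule.

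Lower than in nonclassical monocytes were genes known for that class. The list of 18 nonclassical genes outside the rule had 12 of 17 tested genes lower in all 4 libraries, in the selected and in the restricted cells, against 1.28% and 2.16% of all genes. Its summed level was 3256, 3174, 5223 and 5284 CPM in the restricted cells and 9018, 8289, 12675 and 13523 CPM in the nonclassical cells. For the 24 unused classical genes, 0 of 19 tested were higher in all 4 libraries in the selected cells, against 0.188% of all genes. In the restricted cells 2 of 19 were higher, against 0.332%. Their sum was 8952, 9079, 13057 and 16546 CPM in the selected cells, against 10505, 10154, 12226 and 14289 CPM in nonclassical cells. In the restricted cells it was 16295, 19132, 19355 and 21593 CPM, against 12507, 12542, 12062 and 12999 CPM. Ace, the angiotensin-converting enzyme gene, had 75.5, 15.1, 153 and 182 CPM against 468, 429, 1102 and 1124 CPM. Pou2f2, a transcription factor gene, had 219, 227, 733 and 477 CPM against 886, 754, 1781 and 1591 CPM, and Cd36, a scavenger receptor gene, had a median log2 ratio of -3.61. Il1b had 75.5, 30.2, 260 and 212 CPM against 335, 450, 561 and 753 CPM. S100a8 and S100a9 were lower in the restricted cells in all 4 libraries. S100a9 had 0, 0, 9.28 and 8.94 CPM against 2264, 646, 205 and 826 CPM. The 17 neutrophil genes summed to 5190, 1786, 771 and 2044 CPM in these nonclassical cells, and their part in the S100a8 and S100a9 values was not tested.

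**Figure D5:**
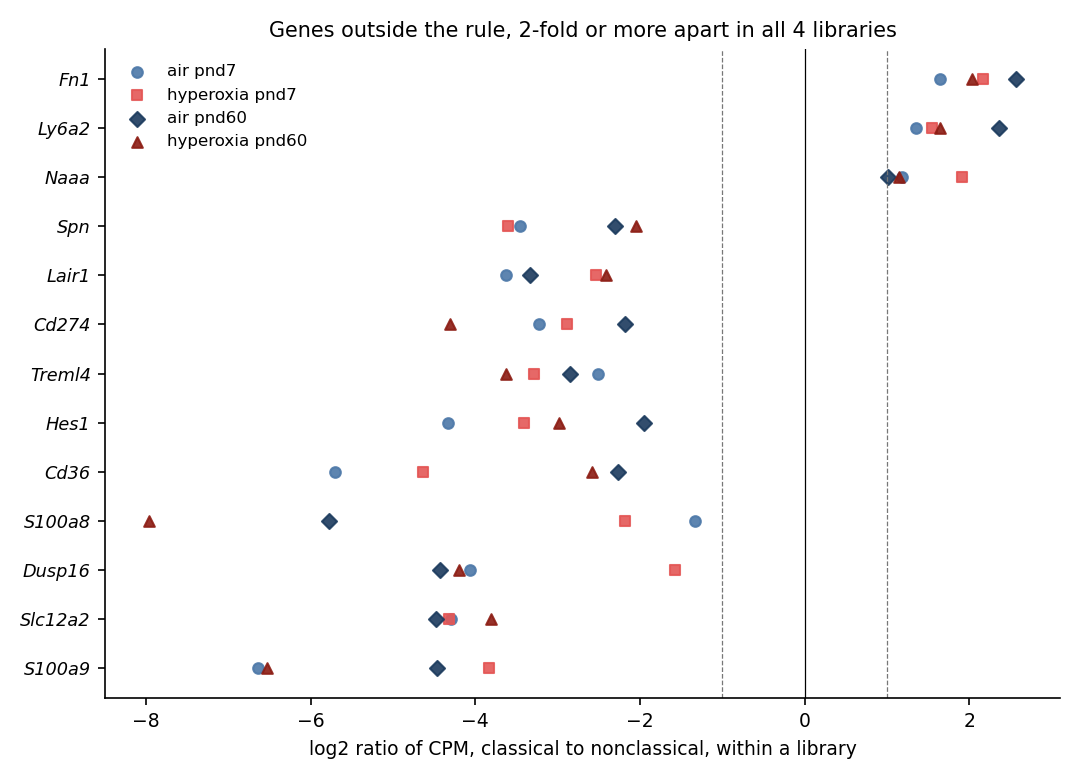
Log2 ratio of CPM between restricted cells and nonclassical monocytes without markers of other types, within each of the 4 libraries, for the 3 genes outside the rule that were higher in all 4 and the 10 lowest by their median. Where a class had 0 counts the point is placed at 3 counts and is a bound, as for S100a9 at pnd7. Fn1, Ly6a2 and Naaa lie to the right of the 2-fold line in all 4 libraries.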

How the data were processed

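Lung cells were measured with the 10x Genomics Chromium system. The authors deposited raw UMI counts per gene and barcode, without normalization. The submitters' processing notes name Cell Ranger, Seurat 3.2.1 and mm10, and the matrix header gives 3.1.0. The annotation is not given in the sources used here. Mitochondrial features were 2 ribosomal RNAs. Of 42454 features, 2346 had the name of a further copy, and they were not added to the gene.

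From the deposited counts the filter, the rule and sums per library were computed with Python 3.11.15, numpy 2.4.6, scipy 1.17.1, pandas 2.3.3 and scanpy 1.11.5 (Scrublet, with exact neighbours). CPM had exact Poisson intervals. Log2 ratios had intervals from the binomial distribution of 1 library's counts given both. Where a library held none, 3 counts stood in, and the ratio is a bound. Genes with at least 50 counts in the 2 libraries were compared, and 2-fold served as the limit. No test was run, because each condition had 1 library. Alternatives varied the markers required, depth (2000 UMIs per cell), doublets, scaling, filters and cycling cells. Thinned cells were selected anew by the whole rule, so values after thinning differ in cells as well as in depth. Leaving out cells with markers of other types and requiring all 4 markers were added after the data had been seen.

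Members and gene lists were chosen with earlier results of these data known. Named genes were drawn from the rule genes, up to 4 genes per list with most counts and up to 4 past 2-fold. They were also drawn from the 10 highest and 10 lowest genes per comparison, ranked by the interval limit nearer 0. Not all genes of these groups are named. Genes from rankings of the restricted cells, Nfkbiz, Tnfaip3, S100a9, Cdkn1a and further examples of a list were named after their values had been seen.

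On simulated counts with 200 changed genes, in 20 simulations, intervals covered 95.8% of the changed genes for exposure at pnd60 (3715 genes). At pnd7 they covered 96.4% (2162 genes). The simulated counts varied by the counting error that the intervals assume, so coverage near their stated level was built in. This coverage cannot show how the intervals hold for the measured counts, where single cells gave most counts of several leading genes.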

Additional observations from a re-analysis of the deposited data

Results flagged for a closer look

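Rgs1, Stmn1, Cd24a, Fndc3b and Lyz1 were 2-fold or more apart between hyperoxia and air in opposite directions at the 2 ages in the selected cells, and the difference between the ages was not tested. The log2 ratio of hyperoxia to air was 2.17 at pnd7 and -2.41 at pnd60 for Rgs1, 1.65 and -1.14 for Stmn1, and 1.06 and -1.01 for Cd24a. Fndc3b had a log2 ratio of hyperoxia to air of -1.44 at pnd7 and 1.29 at pnd60. Lyz1, a lysozyme gene, had -3.95 at pnd7 and 1.84 at pnd60, and 1 cell held 89% of its counts in air pnd7.

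Rgs1, Cd69, Ccl4, Cks2 and Col1a2 were 2-fold or more apart between the ages in opposite directions in air and after hyperoxia, and that difference was not tested either. The log2 ratio of pnd60 to pnd7 was 1.73 in air and -2.85 after hyperoxia for Rgs1, 2.45 and -1.53 for Cd69, 1.43 and -1.31 for Ccl4, and 1.07 and -1.76 for Cks2. For Col1a2, a collagen gene, it was -2.27 and 1.24, and 1 cell held 73% of its counts in air pnd7. In the restricted cells none of these genes had such a pattern, and Dek and Tuba1b were higher in air and lower after hyperoxia.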

How the results depend on the processing

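No paired analysis was possible because only a single library stood for any condition. With 3 or more markers required, the shares of the filtered cells were 0.650%, 0.642%, 1.36% and 1.58% in air pnd7, hyperoxia pnd7, air pnd60 and hyperoxia pnd60, and without cells carrying markers of other types they were 0.693%, 0.642%, 1.32% and 1.81%. Among cells with Ptprc they were 3.49%, 5.59%, 4.46% and 4.67%. With cells thinned to 2000 UMIs, shallower cells left out and the rule applied anew, they were 4.87% and 4.31% at pnd60 against 1.77% and 1.47% at pnd7.

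For hyperoxia against air at pnd7, the number of genes past 2-fold (179) became 10 after thinning, 716 with at least 20 counts, 21 with at least 200 counts, 59 without cells with Mki67 or Top2a, 109 without the 5% of cells with most counts and 32 without cells with markers of other types. For hyperoxia against air at pnd60 (75), it became 40 with 3 or more markers, 24 after thinning, 423 and 9 with at least 20 and 200 counts, 38 without cells with markers of other types and 26 with all 4 markers. For age in air (604), it became 212 with 3 or more markers, 200 after thinning, 1520 and 111 with at least 20 and 200 counts, 338 without cells with Mki67 or Top2a, 390 without the deepest 5% of cells, 200 without cells with markers of other types and 149 with all 4 markers. For age after hyperoxia (829), it became 257 after thinning, 1875 and 150 with at least 20 and 200 counts, 530 without cells with Mki67 or Top2a, 380 without cells with markers of other types and 488 with all 4 markers. For classical against nonclassical (47), it became 72 with 3 or more markers, 17 after thinning and 87 with all 4 markers. Other limits test other numbers of genes, and the remaining counts stayed within 1.5 times. For exposure at pnd7 that holds for counts and not for shares, since 59 higher and 71 lower genes were of 708 tested with 3 or more markers, and 56 and 68 of 584 with all 4. In these 2 sets 1 hyperoxia pnd7 cell with markers of another type held 54645 of 124499 and of 119659 counts.

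Some values changed direction, and the cause was not tested. For exposure at pnd7, Lyz1 was at 0.0829 on the log2 scale with 3 or more markers, Igfbp2 at -0.0101 with mean CPM of single cells, Hopx at -1.19 without cells with Mki67 or Top2a and at -1.94 without the deepest 5% of cells, Hba-a2 at 0.92 with all 4 markers, and the cell cycle median at -0.0054 without cells with Mki67 or Top2a, cells that are left out for genes of that list. For exposure at pnd60, Sftpc was at 1.39 after thinning, 0.0897 without cells with markers of other types and 0.22 with all 4 markers. For age, the cell cycle median in air was at 0.0143 with mean CPM of single cells and at 0.10 without cells with markers of other types, and after hyperoxia at 0.32 without cells with Mki67 or Top2a, where Sftpc was at 1.39 after thinning. Thinning also brought the age medians of the classical genes outside the rule to -0.09 in air and -0.17 after hyperoxia, and those of pattern-recognition genes, 3 and 2 in number, to -0.14 and -0.12. With mean CPM of single cells the chemokine and cytokine median after hyperoxia was -0.13. The 8 restricted cells of hyperoxia pnd7 limit every ratio that uses them.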
